A study of Homo sapiens with 4 samples.

Results

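The members described here are the human genes of 6 enzyme families that oxidise, reduce or conjugate foreign chemicals, steroids, aldehydes and retinoids: cytochromes P450 (CYP), aldehyde dehydrogenases (ALDH), aldo-keto reductases (AKR), UDP-glucuronosyltransferases (UGT), cytosolic and mitochondrial glutathione S-transferases (GST) and cytosolic sulfotransferases (SULT). They were picked out by gene symbol, with CYP51A1 of cholesterol synthesis left out. No measured change entered that rule, but the members were chosen with earlier results of these data known. Of 61228 features in the count tables, 137 symbols matched, and 67 of these had 10 or more counts in at least 2 of the 4 libraries and are reported: 23 CYP, 17 ALDH, 11 AKR, 10 GST, 6 SULT and 0 UGT genes. RNA had been sequenced from H1792, an established human lung cancer cell line labelled as wild type, after 96 h with the solvent DMSO (2 libraries) or with ACBI1 at a dose the labels write as 1 mM (2 libraries). ACBI1 is a PROTAC, a molecule that ties its target proteins SMARCA2, SMARCA4 and PBRM1, subunits of SWI/SNF chromatin remodelling complexes, to a ubiquitin ligase so that they are degraded. The comparison asks which transcripts differed between cells given the degrader and cells given the solvent. It rests on a single line, and nothing in the labels says whether the 2 libraries of a group came from separate cultures, so p-values measure the spread between these libraries, which may be technical.

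Enzymes of these families handle lipophilic compounds in steps. CYP, ALDH and AKR enzymes introduce, oxidise or reduce a reactive group, and UGT, GST and SULT enzymes then attach a sugar acid, glutathione or sulfate that makes the product soluble. The same chemistry sets the level of retinoic acid: retinol dehydrogenases make retinal, ALDH1A enzymes oxidise retinal to retinoic acid, CYP26 enzymes break retinoic acid down, and several AKR enzymes turn retinal back into retinol. In the airway, AKR1B10, AKR1C and ALDH3A1 are known as genes raised in lung cancers and in smokers.

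Gene counts summed to 64281850 to 86010100 per library. On these unscaled totals 3 counts, the limit that a count of 0 allows, corresponded to 0.0349 to 0.0467 counts per 1000000 (CPM). All other CPM given here use scaled library sizes, on which 3 counts can lie slightly lower. Such limits cover counting error only. Transcripts of the degrader's targets were measurable in all 4 libraries, which does not check the proteins. SMARCA4 was at 284 and 216 CPM with DMSO and 414 and 398 CPM with ACBI1 (log2 change 0.70, edgeR adjusted p = 0.0583). It was not called, but 6 of 7 other scalings, filters and tests called it. SMARCA2 was at 22.8 and 24.4 CPM against 17.5 and 18.4 CPM (log2 change -0.40) and PBRM1 at 45.3 to 55.6 CPM, both not called. The line expressed the keratins KRT7, KRT8 and KRT18. The 7 epithelial markers summed to 1001 and 1078 CPM with DMSO and to 324 and 202 CPM with ACBI1, with 5 of 6 tested called lower. Much of that sum was KRT7, at 678 and 680 CPM with DMSO and 179 and 60.3 CPM with ACBI1. The remaining tested marker, EPCAM, was at 5.38 and 2.78 CPM with DMSO and 15.6 and 4.84 CPM with ACBI1. EPCAM was not called (log2 change 1.32). Of the lung alveolar markers, NKX2-1 had 0 counts in each library and the 4 together stayed at or below 0.334 CPM. Hepatocyte markers, checked because many of these enzymes are known from liver, summed to 0.233 to 0.361 CPM, with APOB, FGB and TTR at 0 counts. Markers known from other cell types moved with the treatment: the 3 endothelial markers, of which PECAM1 and VWF were called lower, summed to 12.6 and 48.5 CPM with DMSO and to 0.0112 and 0.0458 CPM with ACBI1, and the 4 fibroblast markers, 3 of them called lower, to 31.6 and 96.9 CPM against 9.38 and 13.2 CPM. Their part in the results on enzymes was not tested, and in bulk RNA fewer cells of a kind and less RNA per cell cannot be told apart. Leukocyte markers stayed at or below 0.904 CPM.

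Transcripts of the 7 reported AKR1B and AKR1C enzymes fell with ACBI1, with fitted log2 changes from -8.48 to -2.94 (-1.78 for AKR1B1 without DMSO replicate 2). Of 53 tested CYP, ALDH, GST and SULT genes, 10 were called. A gene is called here when its Benjamini-Hochberg adjusted p in edgeR's quasi-likelihood test over 19159 genes was under 0.05. Of the 67 reported members, 64 were tested and 17 were called, 15 lower and 2 higher, which is 26.6% of those tested. Over all genes tested 17.4% were called, 10.6% lower and 6.75% higher. The family shares were uneven: 7 of 11 AKR genes, 5 of 15 ALDH genes, 3 of 22 CYP genes, 1 of 10 GST genes and 1 of 6 SULT genes were called. In this fit, which had no block for the replicate number, the shares of CYP, GST and SULT genes were below or near that of all genes. With such a block 11 of 22 CYP, 6 of 10 GST and 2 of 6 SULT genes were called. Of all 19159 genes 7909 were then called, a share below those of CYP and GST genes and above that of SULT genes. Without a block, the median log2 change (ACBI1 minus DMSO) was -0.36 over the 64 tested members, against 0.01 over all genes tested. By family it was -3.36 for AKR, -0.66 for CYP, -0.14 for ALDH, -0.19 for GST and 0.36 for SULT genes. Both ACBI1 libraries lay above both DMSO libraries for 15 tested members and below them for 31, and over all genes 63.2% were so separated in either direction. DESeq2 called 26 members, 20 lower and 6 higher, and 4511 of all 19159 genes, 2604 lower and 1907 higher. Of the members not called, leaving out 1 library gave calls for ALDH1A1, ALDH1A3, CYP26B1 and CYP4X1, for ALDH16A1 (without DMSO replicate 2 or ACBI1 replicate 1), for CYP20A1 (without ACBI1 replicate 1), and for CYP39A1 and GSTO2 (without DMSO replicate 1).

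**Figure D1:**
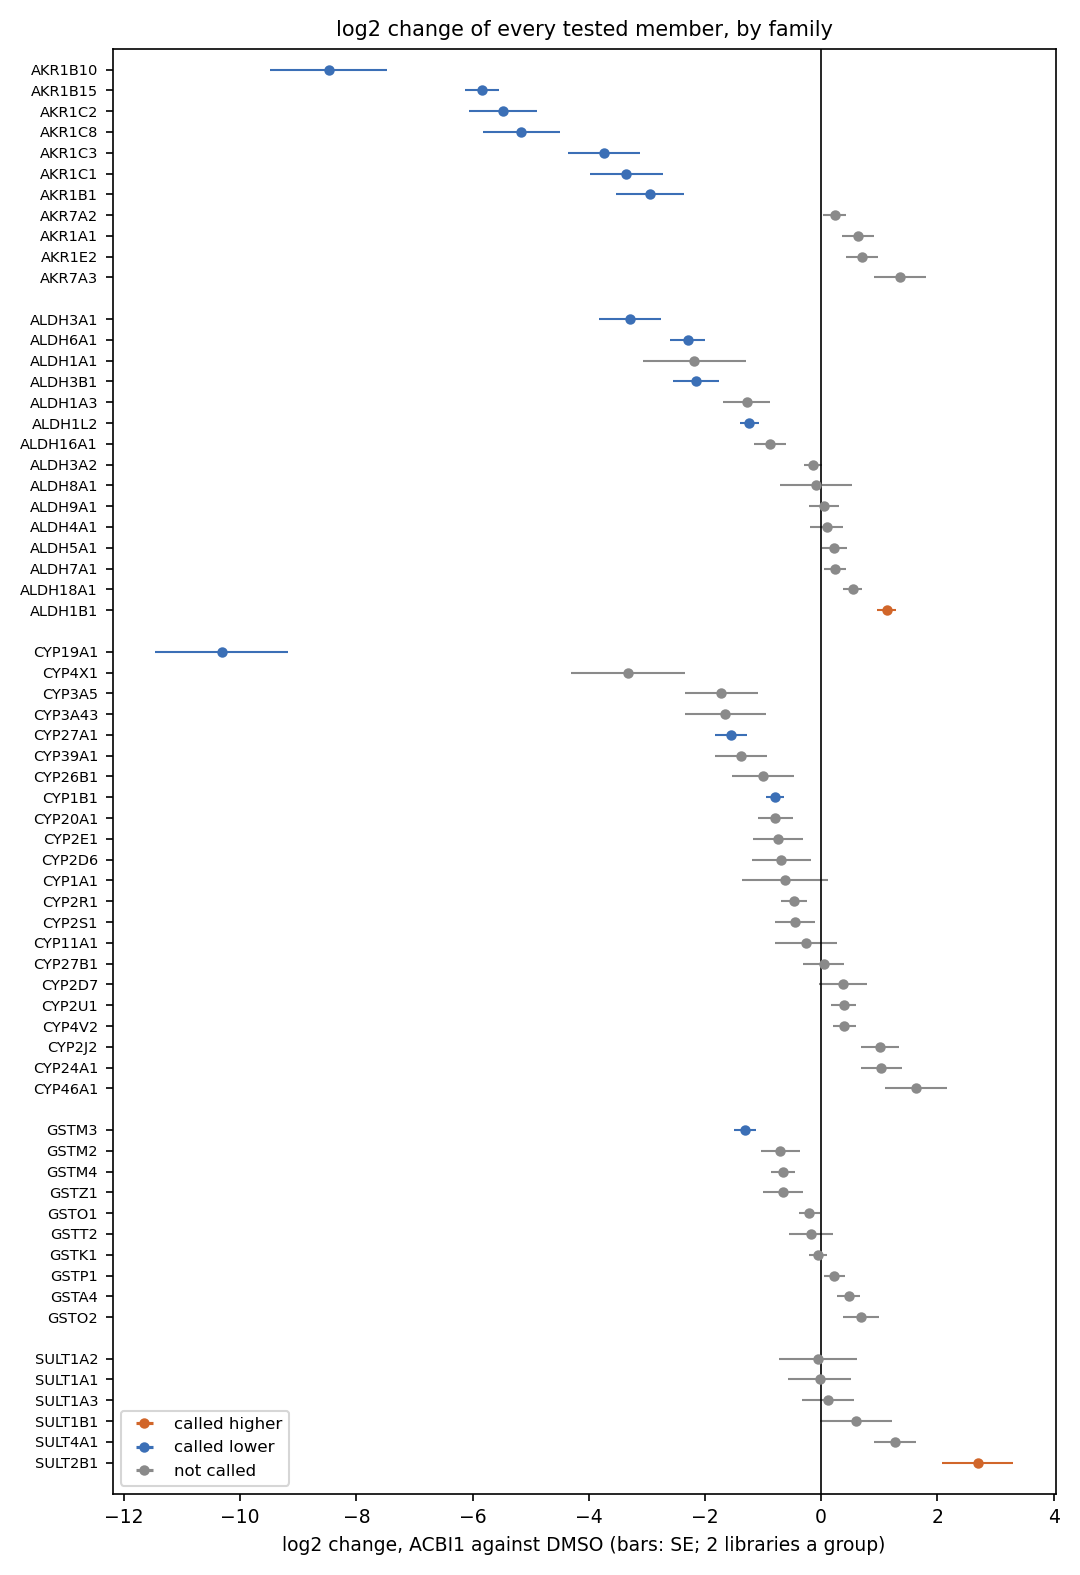
The log2 change of each of the 64 tested members (x axis, ACBI1 against DMSO, 2 libraries a group) is drawn by family, with bars for the SE and colour for the call. The 7 AKR1B and AKR1C genes lie between -8.48 and -2.94, apart from the other 4 AKR genes, which lie between 0.23 and 1.35; for CYP19A1, at 0 counts in both ACBI1 libraries, the plotted size is set by the prior count.

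All 3 reported AKR1B genes fell. They lie side by side on chromosome 7 (GENCODE 29, GRCh38), AKR1B1 at chr7:134442350-134459284 on the minus strand, AKR1B10 at chr7:134527592-134541408 and AKR1B15 at chr7:134549136-134579875 on the plus strand. AKR1B1, aldose reductase, reduces glucose to sorbitol and also takes retinal and lipid aldehydes. It had 58057 and 178992 counts (713 and 2488 CPM) in DMSO replicates 1 and 2, and 15819 and 15727 counts (177 and 240 CPM) in ACBI1 replicates 1 and 2. Both ACBI1 libraries lay below both DMSO libraries, although the DMSO libraries themselves differed by 3.49 times. The log2 change was -2.94 (SE 0.58, edgeR adjusted p = 0.0233), a 7.68-fold fall, which was -1.78 without DMSO replicate 2 and -3.58 without DMSO replicate 1.

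AKR1B10, which reduces retinal and lipid-derived aldehydes, came close to the limit of detection. It had 308 and 1122 counts (3.78 and 15.6 CPM) with DMSO and 3 and 1 counts (0.0335 and 0.0153 CPM) with ACBI1. Its ratio of counts per library size, DMSO over ACBI1, was 361, and its exact 95% interval for counting error ran from 141 to 1329. The model gave a log2 change of -8.48 (SE 1.00, edgeR adjusted p = 0.00613), or -7.12 without DMSO replicate 2, -9.16 without DMSO replicate 1 and -9.16 without ACBI1 replicate 1. AKR1B15, the close relative next to it, was at 29.3 and 42.0 CPM with DMSO and at 0.659 and 0.580 CPM with ACBI1. The replicates of AKR1B15 agreed within 1.43 times in each group, and its log2 change of -5.84 (SE 0.30, edgeR adjusted p = 0.00136) was the smallest p of any member. AKR1B10 and AKR1B15 resemble each other: 14.8% of the 50-base stretches in AKR1B10 transcripts also occur in transcripts of other genes, most of all in AKR1B15, so reads from them can be dropped or given to the wrong gene.

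The 4 reported AKR1C genes fell as well. AKR1C1, AKR1C2 and AKR1C3 reduce ketosteroids such as progesterone and androgens at different positions, and AKR1C3 also makes prostaglandin F. AKR1C1 was at 359 and 795 CPM with DMSO and at 28.1 and 84.8 CPM with ACBI1 (577 ± 308 against 56.4 ± 40.1 CPM, SD, n = 2). On the log2 scale its change was -3.36 (SE 0.62, edgeR adjusted p = 0.0198). AKR1C3 was at 218 and 477 CPM with DMSO and at 13.3 and 39.0 CPM with ACBI1, a log2 change of -3.73 (SE 0.62, edgeR adjusted p = 0.0145). In both genes replicate 2 was the higher library of each group, by 2.19 to 3.01 times, and the groups did not overlap. Without ACBI1 replicate 2 the log2 changes were -4.37 for AKR1C1 and -4.71 for AKR1C3, and without DMSO replicate 2 they were -2.67 and -3.06. Without ACBI1 replicate 1 that of AKR1C1 was -2.77. The fibroblast marker sums given above were likewise higher in replicate 2 of each group, and so was the endothelial sum with DMSO. With ACBI1 the endothelial sums, 0.0112 and 0.0458 CPM, were no higher than 3 counts allow and cannot be compared. The part of these markers in the AKR1C values was not tested.

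AKR1C2 was at 43.7 and 112 CPM with DMSO and at 1.20 and 2.32 CPM with ACBI1, a log2 change of -5.48 (SE 0.59, edgeR adjusted p = 0.00468), or -4.65 without DMSO replicate 2. Whether the falls of AKR1C1 and AKR1C2 differed was not tested. AKR1C8, a sparse transcript, had 36 and 43 counts with DMSO and 1 and 1 counts with ACBI1. The DMSO to ACBI1 ratio of AKR1C8 was 39.9, with an exact 95% interval for counting error of 10.7 to 336, and the model put its log2 change at -5.16 (edgeR adjusted p = 0.00727). AKR1C1 and AKR1C2 are near copies: 38.9% of the 50-base stretches of AKR1C2 transcripts and 28.6% of those of AKR1C1 occur in another gene, so the split of reads between them is uncertain. For AKR1C3 that share was 4.53%.

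The sequences in front of AKR1C1, AKR1C2 and AKR1C3 are shown because their windows resemble each other, most closely for AKR1C1 and AKR1C2. Whether this likeness has a part in their falls was not tested. The windows run from 250 bases before to 50 bases after the start site in RefSeq's annotation of GRCh38.p14, on the gene's strand. The AKR1C1 window is chr10:4963165-4963464 on the plus strand, and that of AKR1C2 is chr10:5003808-5004107 on the minus strand. In a global alignment 288 of 308 positions were identical, 4 were mismatches and 16 were gaps. Capitals mark the bases that differ or face a gap.
AKR1C1: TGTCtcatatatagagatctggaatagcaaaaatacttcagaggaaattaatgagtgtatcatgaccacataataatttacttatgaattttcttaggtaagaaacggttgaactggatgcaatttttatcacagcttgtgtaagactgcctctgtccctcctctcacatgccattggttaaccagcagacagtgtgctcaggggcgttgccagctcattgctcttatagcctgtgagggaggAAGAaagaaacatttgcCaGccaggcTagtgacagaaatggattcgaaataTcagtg
AKR1C2: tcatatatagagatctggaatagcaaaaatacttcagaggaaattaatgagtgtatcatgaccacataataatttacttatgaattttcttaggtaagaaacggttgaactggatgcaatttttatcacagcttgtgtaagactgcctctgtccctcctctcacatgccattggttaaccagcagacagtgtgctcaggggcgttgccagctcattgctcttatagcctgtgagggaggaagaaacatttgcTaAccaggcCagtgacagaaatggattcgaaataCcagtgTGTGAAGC
One of the 2 AKR1C3 windows, chr10:5094164-5094463 on the plus strand, shared 226 of 317 aligned positions with AKR1C1.
AKR1C3: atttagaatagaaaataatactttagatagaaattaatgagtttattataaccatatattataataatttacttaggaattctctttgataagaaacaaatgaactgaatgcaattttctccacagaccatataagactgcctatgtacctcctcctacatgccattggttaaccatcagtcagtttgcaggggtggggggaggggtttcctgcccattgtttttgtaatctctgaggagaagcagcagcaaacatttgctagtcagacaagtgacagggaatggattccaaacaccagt
The window of AKR1C8, which was also called lower, was not alike in this way and shared 170 of 344 aligned positions with AKR1C1. AKR1C1 and the window of AKR1A1, an AKR gene that was not called, shared 156 of 333 aligned positions.

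Each window was searched on both strands for 5 motifs: the AP-1 site TGANTCA, the antioxidant response core TGACNNNGC that NRF2 binds, the GCGTG core bound by AHR with ARNT, the TATA box TATAAA, and the retinoic acid direct repeat, which is AGGTCA repeated with 5 bases between. A sequence TGACTCAGC holds both of the first 2. Over all 35116 windows of this length, 7.71% held the AP-1 site, 13.4% the antioxidant core, 36.5% the GCGTG core, 11.5% the TATA box and 2 windows the direct repeat. RefSeq windows were matched by symbol for 52 of the 67 reported members. None of the 5 motifs occurred in the windows of AKR1C1, AKR1C2 and AKR1C8 or in that of AKR1C3 printed above; the other AKR1C3 window held a TATA box. A window of AKR1B1, chr7:134459051-134459350 on the minus strand, held 1 GCGTG core, in capitals on the reverse strand as CACGC.
AKR1B1: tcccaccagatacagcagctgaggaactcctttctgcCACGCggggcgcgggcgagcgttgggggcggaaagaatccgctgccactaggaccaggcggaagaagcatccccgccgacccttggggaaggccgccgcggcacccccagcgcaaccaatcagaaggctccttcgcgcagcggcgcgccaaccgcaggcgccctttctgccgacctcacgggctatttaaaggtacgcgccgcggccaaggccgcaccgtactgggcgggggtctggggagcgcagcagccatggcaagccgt
In the counts by gene that follow, a match in any window of a gene is enough, unlike in the shares per window above. No window was matched for AKR1B10, AKR1B15, CYP1B1, ALDH1L2 and ALDH3A1, which were among the 15 members called lower. Of the 10 members called lower with a window (19 windows), 2 held a GCGTG core, 2 a TATA box, 1 an AP-1 site and 0 the antioxidant core. CYP19A1, with 7 windows, was the member with the AP-1 site and 1 of the 2 with a TATA box. Among the 40 members that were not called or not tested (52 windows), 18 held a GCGTG core, 7 a TATA box, 1 an AP-1 site and 5 the antioxidant core. These are matches of letters in a short window and say nothing of binding or of sites farther away.

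The other 4 AKR genes were not called, and all 4 log2 changes were positive. AKR1A1, a broad aldehyde reductase, was at 35.3 and 24.95 CPM with DMSO and 57.3 and 36.0 CPM with ACBI1 (log2 change 0.63, edgeR adjusted p = 0.174). AKR7A2 and AKR7A3 reduce aflatoxin dialdehyde, and AKR7A3 went from 0.798 and 0.556 CPM to 2.22 and 1.24 CPM (log2 change 1.35, edgeR adjusted p = 0.0884). AKR1E2, which lies beside the AKR1C genes on chromosome 10, had a log2 change of 0.70 and AKR7A2 one of 0.23. AKR transcripts together summed to 1436 and 3999 CPM with DMSO and to 324 and 451 CPM with ACBI1. In the DMSO libraries AKR1B1, AKR1C1 and AKR1C3 held 89.8% and 94.0% of that sum.

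**Figure D2:**
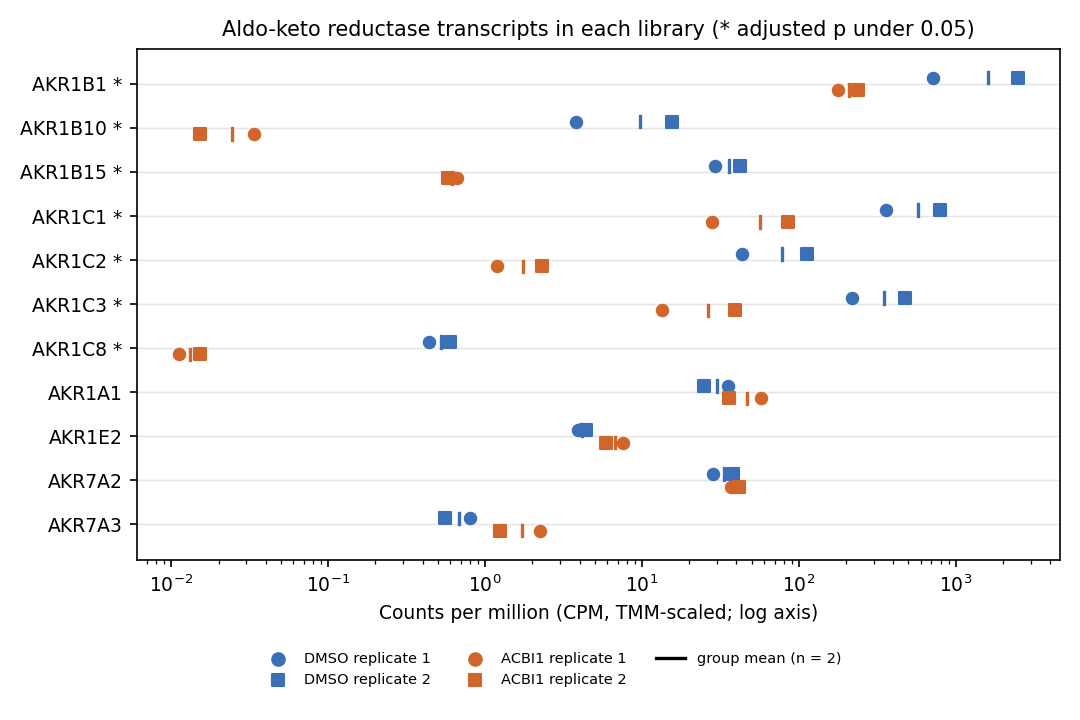
CPM of the 11 reported AKR genes in each library (x axis, log scale), with circles for replicate 1, squares for replicate 2 and vertical ticks for the group means (n = 2). The 7 AKR1B and AKR1C genes sit to the left with ACBI1, with no overlap between groups, and the 4 genes below them sit close together.

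For scale, levels can be compared between genes only per length, here as the mean CPM per kilobase of exonic sequence. On that scale AKR1B1 (437) and GSTP1 (436) were the 2 most abundant members with DMSO, followed by AKR1C3 (76.7) and AKR1C1 (65.9). With ACBI1, GSTP1 was at 510, AKR1B1 at 56.9, ALDH18A1 at 43.5 and GSTO1 at 35.1, with AKR1C1 at 6.44 and AKR1C3 at 5.78. In the DMSO libraries, replicate 2 of these 3 AKR genes was 2.19 to 3.49 times replicate 1.

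Aldehyde dehydrogenases went both ways, with 4 called lower and 1 higher among 15 tested. ALDH1L2, the mitochondrial enzyme that oxidises formyl-tetrahydrofolate, fell from 154 and 135 CPM to 59.4 and 63.3 CPM, a log2 change of -1.24 (SE 0.16, edgeR adjusted p = 0.00761). ALDH6A1, which acts in the breakdown of valine and thymine, fell from 19.2 and 32.9 CPM to 5.27 and 5.31 CPM (log2 change -2.30, SE 0.30, edgeR adjusted p = 0.00777). BBOF1 covers 10.03% of the exonic sequence of ALDH6A1. ALDH3B1, which oxidises membrane-derived lipid aldehydes, fell from 26.98 and 20.3 CPM to 7.18 and 3.40 CPM (log2 change -2.16, edgeR adjusted p = 0.0179), or by -2.79 without ACBI1 replicate 1. In each of these 3 genes both ACBI1 libraries were below both DMSO libraries.

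ALDH3A1, known from airway epithelium and cornea, was rare, with 42 and 48 counts (0.516 and 0.667 CPM) with DMSO and 4 and 5 counts (0.0447 and 0.0763 CPM) with ACBI1. It was called lower (log2 change -3.29, SE 0.54, edgeR adjusted p = 0.0139), and lost the call without ACBI1 replicate 1 (log2 change -2.92, edgeR adjusted p = 0.0574). The exception was ALDH1B1, a mitochondrial enzyme for acetaldehyde and retinal, which rose from 39.9 and 42.0 CPM to 82.9 and 96.1 CPM. Its log2 change was 1.13 (SE 0.16, edgeR adjusted p = 0.00940), and the replicates differed by 1.05 times with DMSO and 1.16 times with ACBI1. ALDH1B1 lies at chr9:38392664-38398661, and no other gene overlaps its exons.

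Enzymes of amino acid metabolism made up most of the rest. ALDH18A1, which starts the synthesis of proline, was at 119 and 107 CPM with DMSO and 163 and 165 CPM with ACBI1. Its log2 change of 0.54 (SE 0.16) missed the threshold (edgeR adjusted p = 0.0641), and 3 of 7 other scalings, filters and tests called it higher. ALDH4A1, ALDH5A1, ALDH7A1 and ALDH9A1, for proline, succinic semialdehyde, lysine and aminobutyraldehyde, had log2 changes between 0.041 and 0.24, and ALDH3A2, the fatty aldehyde dehydrogenase, one of -0.14. An overlapping gene covers 41.1% of the exonic sequence of ALDH4A1. ALDH16A1 was at 35.8 and 26.2 CPM against 20.5 and 13.1 CPM (log2 change -0.88, edgeR adjusted p = 0.0788) and ALDH8A1 had 41 counts in each group. ALDH1L1, the cytosolic counterpart of ALDH1L2, had 3 and 0 counts with DMSO and 10 and 13 with ACBI1 and was too rare for the test.

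Of the enzymes that make retinoic acid, ALDH1A3 was the main transcript. It was at 270 and 109 CPM with DMSO and at 82.1 and 73.9 CPM with ACBI1, so that the DMSO libraries differed by more than DMSO replicate 2 differed from the ACBI1 libraries. The difference in ALDH1A3, -1.28 on the log2 scale (SE 0.41), was not called (edgeR adjusted p = 0.0810), although DESeq2 and edgeR without a filter on low counts called it lower. Without DMSO replicate 2 it was called (log2 change -1.79, edgeR adjusted p = 0.000650), and without DMSO replicate 1 the change was -0.48 and not called. Overlapping genes cover 28.6% of its exonic sequence. ALDH1A1 had 27 and 17 counts with DMSO and 1 and 8 with ACBI1 (log2 change -2.18, SE 0.88, edgeR adjusted p = 0.143). Leaving out ACBI1 replicate 2 gave a call (-4.50, edgeR adjusted p = 0.0388), and leaving out ACBI1 replicate 1 gave -1.21 and none; edgeR with no filter on low counts called it lower. ALDH1A2, at 10 and 29 counts with DMSO and 3 and 0 with ACBI1, was not tested. CYP26B1, which breaks retinoic acid down, was at 5.64 and 17.9 CPM with DMSO and at 6.84 and 4.96 CPM with ACBI1, so that the groups overlapped (log2 change -0.997, edgeR adjusted p = 0.245). Without DMSO replicate 1 CYP26B1 was called lower (-1.60, edgeR adjusted p = 0.00866). CYP26A1 and CYP26C1 had at most 4 counts in a library, and CYP27C1, which desaturates retinol, had 10 and 28 counts with DMSO and 4 and 1 with ACBI1.

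Around these enzymes, 27 partner genes of retinoid uptake, storage, interconversion and signalling were listed. Of these, 20 were tested, 4 called lower and 1 higher, with a median log2 change of -0.31. The share called was 25%, against 17.4% over all genes tested. STRA6, the cell surface receptor that takes up retinol, fell from 307 and 246 CPM to 12.6 and 9.91 CPM, a log2 change of -4.62 (SE 0.23, edgeR adjusted p = 0.00136). RDH10, which oxidises retinol to retinal, fell from 62.0 and 102 CPM to 18.1 and 29.5 CPM (log2 change -1.79, edgeR adjusted p = 0.0192). DHRS3, which reduces retinal to retinol, fell from 202 and 215 CPM to 12.5 and 33.4 CPM (log2 change -3.19, edgeR adjusted p = 0.00980), or by -4.07 without ACBI1 replicate 2. These 3 falls covered retinol uptake and both directions of the step between retinol and retinal. RDH11 and RDH14 were not called (log2 changes -0.54 and 0.021). LRAT, CRABP2 and FABP5, also not called, had log2 changes of 1.04, 0.96 and 0.94. Of the 20 tested partners, both ACBI1 libraries lay above both DMSO libraries for 5 and below them for 8. Over all genes 63.2% were so separated in either direction.

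RDH13, a mitochondrial retinol dehydrogenase, rose from 12.97 and 10.52 CPM to 22.8 and 26.1 CPM (log2 change 1.06, edgeR adjusted p = 0.0221). That call was lost without DMSO replicate 2 (edgeR adjusted p = 0.0533), without ACBI1 replicate 1 (0.0535) and without ACBI1 replicate 2 (0.0903). The nuclear receptors of retinoic acid were not called. RARA had a log2 change of -0.055, RARG one of 0.45 and RXRA one of 0.25. RARB was at 21.0 and 24.0 CPM with DMSO and 8.01 and 17.4 CPM with ACBI1 (log2 change -0.82, edgeR adjusted p = 0.174).

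**Figure D3:**
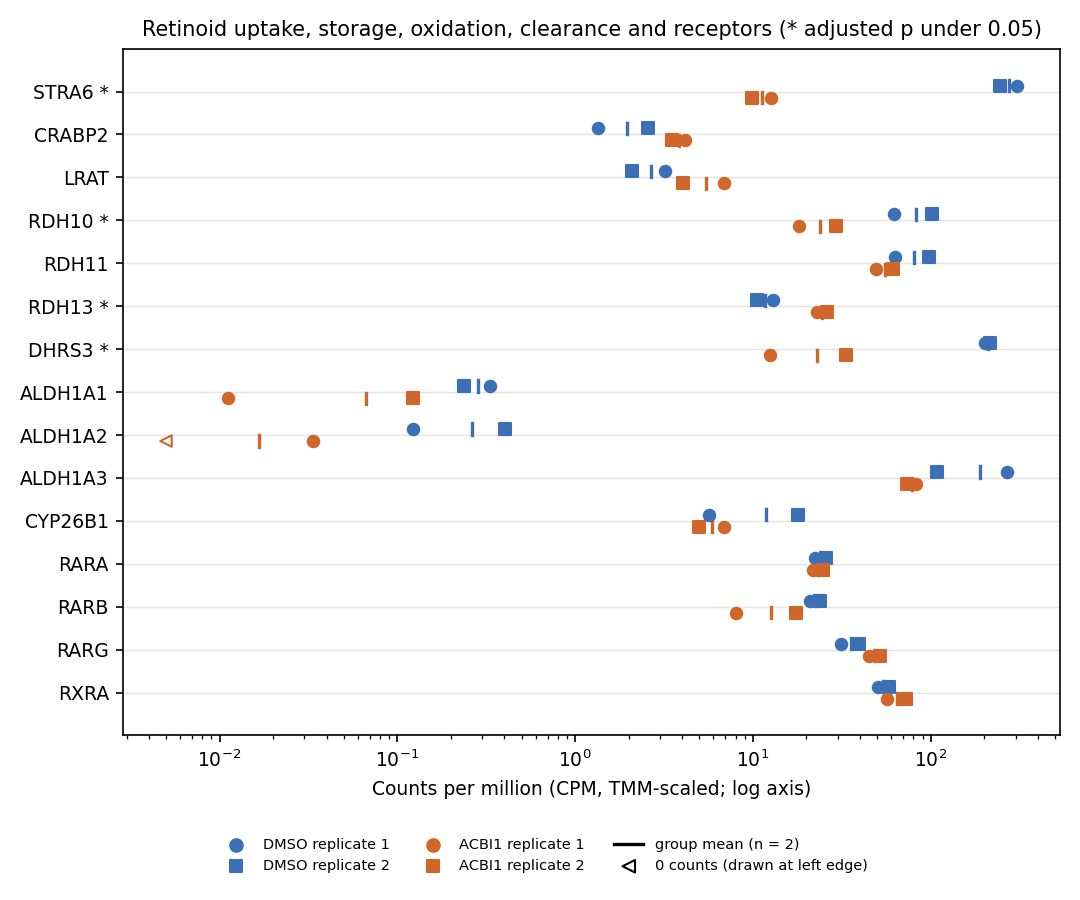
CPM in each library (x axis, log scale) of genes that take up and store retinoids, interconvert retinol and retinal, make and break down retinoic acid, and bind it in the nucleus. STRA6 and DHRS3 show the widest gaps between groups among the called genes (stars), while none of the 4 receptors at the bottom was called; the open triangle marks the ACBI1 library with 0 counts of ALDH1A2.

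Among the cytochromes P450, 3 of 22 tested genes were called, each lower. CYP19A1, aromatase, which makes oestrogens from androgens, had 237 and 87 counts (2.91 and 1.21 CPM) with DMSO and 0 counts in both ACBI1 libraries. Against a floor of 3 counts over the ACBI1 group, CYP19A1 was at least 109-fold lower (edgeR adjusted p = 0.00785). That bound was 62.5-fold without DMSO replicate 1, 46.2-fold without ACBI1 replicate 1 and 63.0-fold without ACBI1 replicate 2, and CYP19A1 was called lower in each case. The size of its fitted change is set by the prior count and is no bound. CYP27A1, the mitochondrial sterol 27-hydroxylase, fell from 40.4 and 51.2 CPM to 19.2 and 11.9 CPM (log2 change -1.55, SE 0.27, edgeR adjusted p = 0.0166). CYP1B1, an oestrogen and polycyclic hydrocarbon hydroxylase that AHR is known to induce, fell from 70.6 and 66.7 CPM to 37.0 and 42.4 CPM (log2 change -0.79, SE 0.16, edgeR adjusted p = 0.0237). The call of CYP1B1 was lost without ACBI1 replicate 1 (edgeR adjusted p = 0.133) or ACBI1 replicate 2 (0.0576), and other genes cover 13.02% of its exonic sequence.

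CYP1A1, the textbook target of AHR, was low and variable. It had 47 and 177 counts (0.577 and 2.46 CPM) with DMSO and 55 and 89 counts (0.614 and 1.36 CPM) with ACBI1, and the groups overlapped (log2 change -0.63, SE 0.74, edgeR adjusted p = 0.600). Its window, chr15:74725479-74725778 on the minus strand, is printed because it holds a GCGTG core and a TATA box, both in capitals.
CYP1A1: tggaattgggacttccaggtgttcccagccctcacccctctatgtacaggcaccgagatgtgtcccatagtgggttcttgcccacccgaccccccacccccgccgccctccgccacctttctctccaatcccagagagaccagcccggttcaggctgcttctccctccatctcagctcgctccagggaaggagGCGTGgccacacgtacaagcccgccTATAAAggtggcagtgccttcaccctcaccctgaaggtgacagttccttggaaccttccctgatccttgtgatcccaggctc
AHR itself fell from 47.7 and 44.95 CPM to 18.8 and 16.1 CPM (log2 change -1.41, SE 0.17, edgeR adjusted p = 0.00644), and other genes cover 32.3% of its exonic sequence. Its partner ARNT stayed at 45.8 to 48.8 CPM in the 4 libraries (log2 change 0.025, edgeR adjusted p = 0.924). ARNT2 was at 5.64 and 44.8 CPM with DMSO and 2.47 and 1.75 CPM with ACBI1 and was called lower (edgeR adjusted p = 0.0469). The log2 change of ARNT2, -3.57, was -1.41 without DMSO replicate 2 (edgeR adjusted p = 0.0651) and -4.40 without DMSO replicate 1. The call was also lost without ACBI1 replicate 1 (0.0703), without ACBI1 replicate 2 (0.0823) and under limma-voom (0.148).

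Apart from CYP27A1, given above, the tested vitamin D and sterol enzymes of the CYP family were not called. CYP24A1, which inactivates vitamin D, was at 0.614 and 0.598 CPM with DMSO and at 1.16 and 1.33 CPM with ACBI1 (log2 change 1.03, edgeR adjusted p = 0.0987). CYP2R1 and CYP27B1, which activate it, had log2 changes of -0.46 and 0.043. CYP39A1 and CYP46A1, which hydroxylate cholesterol or its products, had log2 changes of -1.38 (edgeR adjusted p = 0.0859) and 1.63 (0.0882), and CYP11A1, which starts steroid synthesis, one of -0.26. Fatty acid enzymes did not pass the test either. CYP2J2 went from 1.04 and 1.04 CPM to 2.22 and 1.97 CPM (log2 change 1.01, edgeR adjusted p = 0.0864), and CYP2U1 and CYP4V2 had log2 changes of 0.39 and 0.40. CYP4X1 was at 0.688 and 2.96 CPM with DMSO and at 0.302 and 0.0458 CPM with ACBI1 (log2 change -3.32, SE 0.98, edgeR adjusted p = 0.0670). DESeq2 and edgeR with no filter called CYP4X1 lower, as did the fits that left out DMSO replicate 1 (-4.01, edgeR adjusted p = 0.00562) or ACBI1 replicate 1 (-5.26, 0.0341). The fit that left out DMSO replicate 2 gave -1.91 and no call.

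The drug-metabolising P450s known from liver were rare. Summed over each group, DMSO first, CYP3A5 held 58 and 18 counts, CYP3A43 33 and 10, CYP2E1 65 and 39, and CYP2D6 89 and 57. None of the 4 was called. CYP2D6 shares 34.4% of its 50-base stretches with other genes, chiefly CYP2D7. Other genes cover 23.9% of the exonic sequence of CYP2E1. CYP2D7 had a log2 change of 0.37, CYP2S1 one of -0.45 and CYP20A1, an orphan enzyme at 32.5 and 26.1 CPM with DMSO and 21.6 and 12.4 CPM with ACBI1, one of -0.79 (edgeR adjusted p = 0.121). Summed over the 55 CYP symbols, transcripts were at 216 and 231 CPM with DMSO and 158 and 131 CPM with ACBI1.

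**Figure D4:**
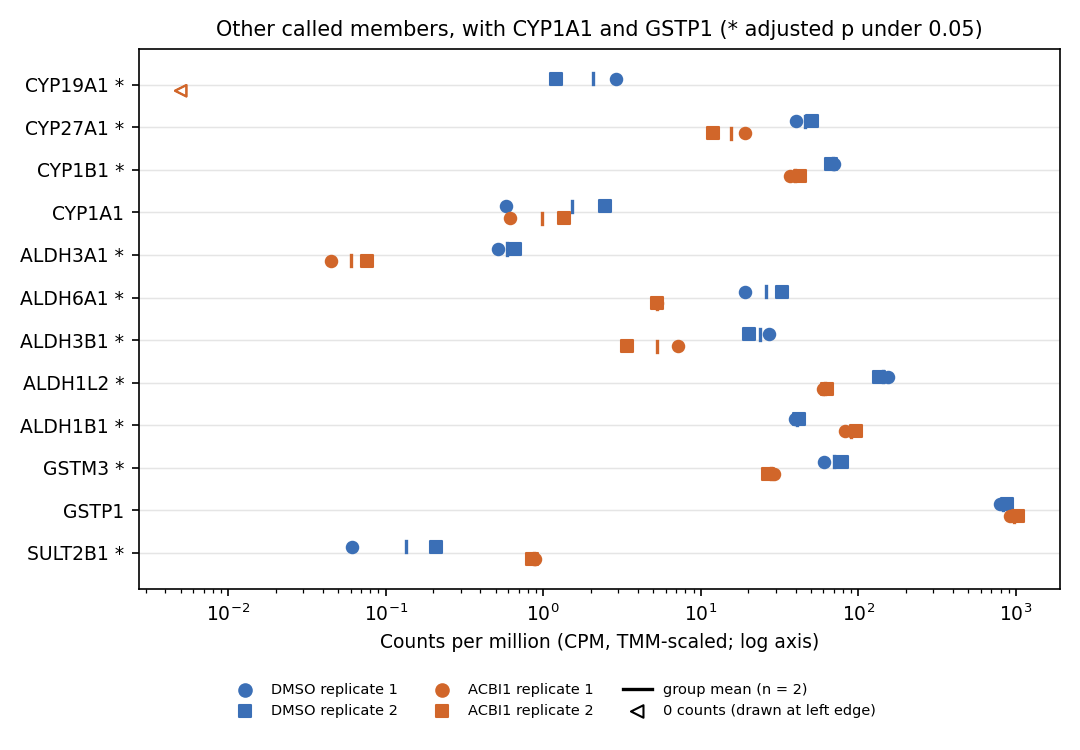
CPM in each library (x axis, log scale) of the 10 called members outside the AKR family, with CYP1A1 and GSTP1, which were not called. ALDH1B1 and SULT2B1 lie to the right with ACBI1 and the other called genes to the left; open triangles mark the ACBI1 libraries with 0 counts of CYP19A1.

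Among the glutathione S-transferases, 1 of 10 tested genes was called. GSTP1, the main transferase of lung epithelium, was at 790 and 876 CPM with DMSO and at 918 and 1031 CPM with ACBI1, which is 833 ± 61.3 against 974 ± 80.5 CPM (SD, n = 2). GSTP1 did not pass the test, with a log2 change of 0.23 (SE 0.18, edgeR adjusted p = 0.426). The GSTP1 window, chr11:67583562-67583861 on the plus strand, is printed because it holds TGACTCAGC, which matches both the AP-1 site and the antioxidant core (capitals).
GSTP1: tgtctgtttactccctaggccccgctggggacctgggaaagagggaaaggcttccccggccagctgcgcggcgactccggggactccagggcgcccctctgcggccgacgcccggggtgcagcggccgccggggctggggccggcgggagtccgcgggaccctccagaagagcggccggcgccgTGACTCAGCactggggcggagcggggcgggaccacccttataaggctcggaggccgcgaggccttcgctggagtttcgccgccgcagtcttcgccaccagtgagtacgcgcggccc
GSTM3, a transferase of the mu class, was the 1 called gene of 10 and fell from 60.6 and 79.0 CPM to 29.4 and 26.7 CPM (log2 change -1.32, SE 0.19, edgeR adjusted p = 0.00972). The other mu genes, which lie beside it on chromosome 1, had log2 changes of -0.66 for GSTM4 (edgeR adjusted p = 0.0805) and -0.70 for GSTM2 (0.204). Of the 50-base stretches of GSTM2 and GSTM4, 16.1% and 16.95% occur in other genes, against 4.797% for GSTM3.

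The remaining GST genes had log2 changes between -0.66 and 0.68, and none was called. GSTO2 was at 34.0 and 20.4 CPM with DMSO and at 52.4 and 35.0 CPM with ACBI1 (log2 change 0.68, edgeR adjusted p = 0.177), and its neighbour GSTO1 at 76.5 and 60.4 against 63.7 and 55.0 CPM (-0.21). GSTA4, which conjugates the lipid aldehyde hydroxynonenal, had a log2 change of 0.47, GSTK1 of mitochondria and peroxisomes one of -0.050, and GSTZ1 of tyrosine breakdown one of -0.66. GSTT2 held 93 counts over the DMSO group and 83 over the ACBI1 group, and 81.1% of its 50-base stretches also occur in GSTT2B. GST transcripts together summed to 1074 and 1157 CPM with DMSO and to 1178 and 1240 CPM with ACBI1.

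Sulfotransferases were rare, at 2.63 to 6.95 CPM summed over the family. SULT2B1, which sulfates cholesterol and other sterols, rose from 5 and 15 counts (0.0614 and 0.209 CPM) to 79 and 56 counts (0.882 and 0.854 CPM). The log2 change of SULT2B1 was 2.69 (SE 0.61, edgeR adjusted p = 0.0329), or 3.79 without DMSO replicate 2. The call was lost without DMSO replicate 1 (log2 change 2.05, edgeR adjusted p = 0.0547), ACBI1 replicate 1 (0.0635) or ACBI1 replicate 2 (0.0518). SULT4A1, a brain sulfotransferase with no well-known substrate, was at 1.33 and 0.904 CPM with DMSO and at 2.86 and 2.53 CPM with ACBI1. Its log2 change of 1.27 missed the threshold (edgeR adjusted p = 0.0592), and 4 of 6 alternatives that tested it called it higher. SULT1A1 was at 2.73 and 1.03 CPM with DMSO and at 2.31 and 1.37 CPM with ACBI1. SULT1A1, SULT1A2 and SULT1A3, which sulfate phenols, had log2 changes of -0.026, -0.060 and 0.12, and SULT1B1 held 20 counts over the DMSO group and 30 over the ACBI1 group. The signs of SULT1A1 and SULT1A2 turned under scaling by library size only. Since 81.4% of the 50-base stretches of SULT1A3 occur in other genes, mostly SULT1A4, its count is uncertain.

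No UGT gene reached the minimum for reporting. The 21 UGT symbols held 43 counts over the 4 libraries, 10 of them had 0 counts in each, and the most frequent was UGT1A1, with 1 and 14 counts with DMSO and 0 and 1 with ACBI1. The 9 UGT1A genes share exons, with 40.6% to 80.0% of their exonic length overlapped by other genes, so reads from shared exons can be missing from these counts. Over all families, 70 symbols fell short of the minimum and 35 of those had 0 counts in each library. Just outside the minimum were CYP4F11, with 65, 9, 4 and 2 counts in DMSO replicates 1 and 2 and ACBI1 replicates 1 and 2, and UGT1A1. Just inside were ALDH1L1, ALDH1A2 and CYP27C1, given above, none of which passed edgeR's own filter on low counts.

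Other genes of the same chemistry, from 5 further lists, were also examined. Over all 6 lists, 81 of 112 genes were tested, 16 called lower and 5 higher (25.9%). Over all genes tested 17.4% were called, 10.6% lower and 6.75% higher. By list the share was 25% for retinoid partners, 22.2% for sensors and 23.1% for cofactor and cosubstrate supply. It was 16.7% for other oxidising, reducing and hydrolysing enzymes, 44.4% for other conjugating enzymes and 33.3% for drug transporters. Under scaling by library size only, 15 list genes were lower and 8 higher, against 1866 lower and 1755 higher of all 19159 genes. Of the drug transporters, 3 of 12 were called lower and 1 higher, with a median log2 change of -0.43. ABCC3, which exports glucuronides and glutathione conjugates, fell from 440 and 256.1 CPM to 36.1 and 18.7 CPM (log2 change -3.67, edgeR adjusted p = 0.00571). SLCO2B1, which takes up organic anions, fell from 1.94 and 1.58 CPM to 0.0559 and 0.0153 CPM (log2 change -5.48, edgeR adjusted p = 0.00476), on 6 ACBI1 counts, or by -6.70 without ACBI1 replicate 1. SLC22A3, an organic cation transporter, had a log2 change of -1.49 (edgeR adjusted p = 0.0304), and lost the call without ACBI1 replicate 2 (0.0667). ABCG2, an exporter that limits drug uptake, was called higher (log2 change 1.25, edgeR adjusted p = 0.0336), but not without ACBI1 replicate 1 (0.156) or DMSO replicate 2 (0.0726).

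Conjugating enzymes outside the families had 4 of 9 tested genes called lower and 0 higher, with a median log2 change of -1.13. MGST1, the microsomal glutathione transferase, fell from 293 and 291 CPM to 83.3 and 103 CPM (log2 change -1.65, edgeR adjusted p = 0.00503). HNMT, which methylates histamine, fell from 17.1 and 23.2 CPM to 4.02 and 2.97 CPM (log2 change -2.52, edgeR adjusted p = 0.00532). NNMT, which methylates nicotinamide, had a log2 change of -1.43 (edgeR adjusted p = 0.0334, or 0.0893 without ACBI1 replicate 1). MGST2 had one of -1.28 (edgeR adjusted p = 0.0286), a call lost without DMSO replicate 2 (0.0933), ACBI1 replicate 1 (0.0956) or ACBI1 replicate 2 (0.0740).

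Genes that supply cofactors and cosubstrates went both ways, with 2 of 13 called higher and 1 lower and a median log2 change of 0.05. GSR, which regenerates glutathione, rose from 119 and 111 CPM to 270 and 244 CPM (log2 change 1.16, SE 0.16, edgeR adjusted p = 0.00940). GCLM, the modifier subunit of the enzyme that starts glutathione synthesis, rose from 53.5 and 46.0 CPM to 98.0 and 89.0 CPM (log2 change 0.91, edgeR adjusted p = 0.0179), a call lost without ACBI1 replicate 1 (0.0703). UGDH, which makes the UDP-glucuronic acid that UGT enzymes use, fell from 147 and 156 CPM to 38.0 and 61.7 CPM (log2 change -1.61, edgeR adjusted p = 0.0125). POR, the electron donor of microsomal P450s, was at 129 to 184 CPM in the 4 libraries and was not called (log2 change -0.12).

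Among 9 tested sensors of foreign compounds, AHR and ARNT2 were called lower and none was called higher, with a median log2 change of -0.14. NFE2L2, which encodes NRF2, the activator of many AKR, GST and glutathione genes, stayed at 128 to 135 CPM (log2 change 0.034), and its inhibitor KEAP1 at 91.9 to 116 CPM (0.22). Other oxidising, reducing and hydrolysing enzymes had 2 of 18 called lower and 1 higher, with a median log2 change of -0.25. XDH, xanthine dehydrogenase, had 73 and 120 counts with DMSO and 1 and 5 with ACBI1 (log2 change -4.94, edgeR adjusted p = 0.0128). Without ACBI1 replicate 1 the change was -4.04, and without the other ACBI1 library it was -6.66. CES2, a carboxylesterase, was called lower (log2 change -0.83, edgeR adjusted p = 0.0411), but not without DMSO replicate 1 (0.0735), without ACBI1 replicate 2 (0.162) or under scaling by library size only (0.0517). NQO2, a quinone reductase, was called higher (log2 change 0.73, edgeR adjusted p = 0.0306), but not without DMSO replicate 2 (0.0954), ACBI1 replicate 1 (0.0667) or ACBI1 replicate 2 (0.145). NQO1, a widely used NRF2 target, was at 521 and 511 CPM with DMSO and at 391 and 329 CPM with ACBI1 and was not called (log2 change -0.52, edgeR adjusted p = 0.0969).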

How the data were processed

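RNA from 4 H1792 libraries, 2 with DMSO and 2 with ACBI1, was deposited by the authors as raw read counts per gene symbol, beside 5 totals of reads that were assigned nowhere, left out here. The submitters' processing notes name TopHat2 2.1.1, HTSeq 0.11.0 and hg38; annotation release and strand setting are not given in the sources used here, so antisense or overlapping genes can trade or lose reads. Reads in genes were 84.6% to 86.1% of those listed.

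Counts were filtered with filterByExpr (minimum count 10, minimum total 15), which kept 19159 genes, scaled by TMM and tested on treatment with edgeR 4.0.16 in R 4.3.3 (two-sided quasi-likelihood test, Benjamini-Hochberg over all genes). DESeq2 1.42.0 and limma 3.58.1 (voom) served as alternatives. CPM use TMM-scaled library sizes, and the SE is the log2 change divided by the root of F. With 2 libraries in each group the smallest exact permutation p is 0.333. Lengths, overlaps and shared 50-base stretches came from GENCODE 29 by symbol (66 of 67 reported members). The scripts were tested on simulated counts with the same spread for every gene. There edgeR recovered 14% of 50 changed genes at a log2 change of 1 and 96% of 50 at 2. A gene that was not called can therefore have changed. By rule, values per library were given for called members, the 3 most abundant of each family and a fixed set of enzymes. The called genes of each list were named. POR, ARNT, NFE2L2, KEAP1, NQO1, the retinoic acid receptors and per-library values of further members were added after their values were seen. So were the values of KRT7, EPCAM, RDH11, RDH14, LRAT, CRABP2 and FABP5. Members and lists were chosen with earlier results of these data known. One gene of these lists is counted but not reported here by name.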

Additional observations from a re-analysis of the deposited data

How the results depend on the processing

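The 17 called members were also called, in the same direction, with DESeq2 size factors (17 called), upper-quartile scaling (18), library size only (19), limma-voom (18), no filter on low counts (34), DESeq2 (26) and the replicate block. Of all 19159 genes, DESeq2 size factors called 3354, upper-quartile scaling 3502, library size only 3621, limma-voom 3312 and DESeq2 4511. A mean of at least 5 CPM left 36 members to test and 12 called, and 2555 of 11163 genes were called. That filter removed AKR1B10, AKR1C8, ALDH3A1, CYP19A1 and SULT2B1. At an adjusted p under 0.01, 9 members, 8 pathway genes and 783 of all genes were called, against 17, 21 and 3331. Without a filter 35 pathway genes and 5518 of all genes were called; the cause was not tested. With 1 library left out, the lone library of its group was taken to vary like the others, and 16 to 20 members, 15 to 27 pathway genes and 1682 to 3799 of all genes were called; the lowest of the last came without ACBI1 replicate 1, and 2126 were called without ACBI1 replicate 2.

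The labels give both groups replicates 1 and 2 without saying what a number shares. Over genes, the deviations of same-numbered libraries from their group means correlated at 0.442. With the replicate number as a block, 38 members (26 lower, 12 higher), 52 pathway genes and 7909 of all 19159 genes were called. Of the 38 members, 21 were in addition to the 17. By family the block called 11 of 22 CYP, 9 of 15 ALDH, 10 of 11 AKR, 6 of 10 GST and 2 of 6 SULT genes. Each of these shares except that of SULT genes was above the share of all genes called with the block. Together 28 of 53 CYP, ALDH, GST and SULT genes were called, against 10 without the block. ALDH1A3, CYP4X1 and ALDH1A1 were among those added.

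The sign turned only for members that were not called. Under the block, in the pairing by number, the log2 change was -0.00650 for CYP27B1, 0.067 for SULT1A1 and 0.0059 for SULT1A2. Under library size only it was 0.0089 for ALDH8A1, 0.038 for GSTK1, 0.073 for SULT1A1 and 0.037 for SULT1A2, under upper-quartile scaling 0.014 for SULT1A1, and under limma-voom 0.095 for SULT1A1 and 0.11 for SULT1A2. With 1 library left out it ranged from -1.18 to 0.29 for CYP11A1, -1.33 to 0.76 for CYP1A1, -1.60 to 0.066 for CYP26B1, -0.42 to 0.39 for CYP27B1, -0.25 to 0.55 for ALDH4A1, -1.11 to 0.46 for ALDH8A1, -0.30 to 0.31 for ALDH9A1, -0.13 to 0.021 for GSTK1, -0.56 to 0.84 for SULT1A1, -0.66 to 1.03 for SULT1A2 and -0.12 to 0.42 for SULT1A3. A minimum of 10 counts in 1 library would report 69 members and one of 20 counts in 2 libraries 60.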
